A study of Mus musculus with 26 samples.

Results

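Forkhead genes encode transcription factors that share a winged-helix DNA-binding domain, and 39 of them, found by their symbols among 26180 mouse genes with a start site on the assembled chromosomes, were followed in mouse embryonic stem cells (ESCs). For each gene, and in each deposited set of regions, the region that overlapped most with 1.5 kb either side of its start sites was taken. ChIP-reChIP pulls chromatin down with one antibody and then the eluate with another, which enriches for fragments that carry both marks. Fragments recovered with the first antibody alone can also carry through, so the reChIP is made in both orientations. The marks were H3K4me3, found at promoters that are active or open to activation, and H3K27me3, which Polycomb repressive complex 2 places on silenced genes. Chromatin with both is called bivalent.

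The 26 libraries came from E14 cells and from clones of E14 origin, all grown in serum/LIF. E14 cells (genotype WT) were profiled in replicates 1 and 2, WT clones as clones 57 and 58, and clones with both Dppa2 and Dppa4 knocked out (DKO) as clones 43 and 53. Dppa2 and Dppa4 are chromatin-binding proteins of pluripotent cells. Each of these 6 sources gave total H3K4me3, total H3K27me3, K4-K27 (H3K4me3 first) and K27-K4 (H3K27me3 first), and an IgG–IgG reChIP was made from E14 replicate 1 and from WT clone 57 only. The totals are chromatin set aside after the first immunoprecipitation of the same cells. Each clone is a single line, so p-values between genotypes measure only the spread between these clones, and where E14 cells are compared with the clones, clonal derivation and sequencing batch cannot be told apart. The H3K4me3 antibody may also bind H3K4me2.

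Many forkhead genes are master regulators of single lineages that ESCs hold silent. Of the 39 genes, 25 were set down as lineage regulators. They include the endoderm pioneer factors Foxa1, Foxa2 and Foxa3, the mesoderm factors Foxc1, Foxc2, Foxd1, Foxd2, Foxf1 and Foxf2, the neural and neural crest factors Foxb1, Foxb2, Foxd3 and Foxd4, and the Foxi genes of ectoderm and ear. The other 14 were set down as broadly used genes, a working label that was not checked against expression and does not hold equally for all. Among them Foxo1 and Foxo3 act downstream of insulin signalling, Foxm1 drives genes of cell division, Foxk1 and Foxk2 act in metabolism, and Foxh1 partners Smad proteins in Nodal signalling.

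Depth was 6741244 to 47903462 reads per library, with a median of 16875026 reads, and this limits narrow regions most. Values are log2 RPM (read number scaled by library depth) for each kb of region, and enrichment is the difference from the IgG–IgG library of the same cells or batch. Values of single libraries below are enrichment unless stated. As a check of the cell type, 10 of 10 ESC marker genes, among them Pou5f1 and Nanog, had a total H3K4me3 region, and their lowest enrichment in any total H3K4me3 library was 0.78. Dppa2 kept a total H3K4me3 region with log2 RPM values, IgG–IgG not subtracted, of 1.94 and 0.88 in WT and 2.14 and 1.33 in DKO clones. This does not test a deletion of coding sequence.

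Nearly all forkhead genes had reChIP regions in E14 cells. A K4-K27 region lay at 36 of 39, where 58.7% of all genes had one, and a K27-K4 region at 37 of 39, against 66.2%. Both were present at 36 genes, against 58.5%. The deposited sets are larger than the peak sets the study reports, so a region in both is not by itself a call of bivalent chromatin. Of the totals, E14 cells had a total H3K4me3 region at 23 of 39 (53.2% of all genes) and a total H3K27me3 region at 11 of 39 (12.1%). The last count was 19 with windows of 5 kb and 7 where at least 1 log2 unit over IgG–IgG was required in both replicates. The genes outside the reChIP sets were Foxn1, the thymic epithelium factor, and Foxn3, which had neither, and Foxi1, which lacked K4-K27 only. Foxc2 and Foxl1 shared 1 region, so the 37 genes stand for 36 regions.

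The region sets of the WT clones held total H3K4me3 at 29 of 39 genes (60.2% of all genes), total H3K27me3 at 17 (15.8%), K4-K27 at 35 (59.4%) and K27-K4 at 31 (33.7%), and both reChIPs at 29 (30.9%). Those of the DKO clones held total H3K4me3 at 23 (56.1%), total H3K27me3 at 19 (17.6%), K4-K27 at 34 (57.8%), K27-K4 at 27 (32.1%) and both reChIPs at 27 (28.9%). Foxa2 and Foxq1 were in all 12 sets, and Foxn1 was in 0. Foxi2 was in both E14 reChIP sets and in all 4 sets of the WT clones but in none of the 4 DKO sets.

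The totals listed different shares of lineage regulators and broadly used genes. In E14 cells total H3K4me3 was listed at 10 of 25 lineage regulators and at 13 of 14 broadly used genes, while total H3K27me3 was listed at 10 of 25 and 1 of 14. The single broadly used gene with a total H3K27me3 region in E14 cells was Foxo6. In the WT clones K27-K4 was listed at 24 of 25 lineage regulators and at 7 of 14 broadly used genes. K4-K27 was listed at 22 of 25 and 13 of 14. These counts describe the sets and were not tested.

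Regions at the lineage regulators were broad. The K27-K4 region of E14 cells had a median width of 14.9 kb over 24 lineage regulators and 6.45 kb over 13 broadly used genes, while 14344 promoter regions of the same set had a median of 3.75 kb. Width exceeded 10 kb at 16 of the 24 and at 3 of the 13. The broadest lay at Foxf1 (chr8:121068301-121094400, mm10), at 26.1 kb, and at Foxc1 (chr13:31797151-31822350), at 25.2 kb. That of Foxp1, a factor of lymphocyte and neuron development, measured 5.55 kb (chr6:99518701-99524250).

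The promoters below are shown because they carry the contrasts described here: Foxi2, which differed between genotypes, Foxn1 and Foxn3, which had no reChIP region in E14 cells, Foxf2, which had a broad one, and Foxk2, whose 2 orientations differed in the clones. Each runs from 250 bases before to 50 after the start site, in GRCm38.p6 from RefSeq, 5′ to 3′ on the strand of the gene, with every CG dinucleotide (CpG, the letters CG, the same on both strands) in capitals.
Foxi2, chr7:135410117-135410416, plus strand: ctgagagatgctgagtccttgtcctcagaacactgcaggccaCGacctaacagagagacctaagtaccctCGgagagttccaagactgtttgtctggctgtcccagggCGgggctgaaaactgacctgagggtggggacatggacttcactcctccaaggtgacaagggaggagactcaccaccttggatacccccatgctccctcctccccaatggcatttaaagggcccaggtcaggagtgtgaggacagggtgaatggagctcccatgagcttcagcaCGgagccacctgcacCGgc
Foxn1, chr11:78386559-78386858, minus strand: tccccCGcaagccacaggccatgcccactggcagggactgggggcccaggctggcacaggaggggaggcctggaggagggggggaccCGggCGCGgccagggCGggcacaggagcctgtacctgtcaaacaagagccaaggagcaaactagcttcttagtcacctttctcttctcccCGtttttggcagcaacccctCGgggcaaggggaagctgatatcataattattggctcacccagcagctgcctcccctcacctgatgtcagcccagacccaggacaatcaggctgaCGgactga
Foxn3, chr12:99450025-99450324, minus strand: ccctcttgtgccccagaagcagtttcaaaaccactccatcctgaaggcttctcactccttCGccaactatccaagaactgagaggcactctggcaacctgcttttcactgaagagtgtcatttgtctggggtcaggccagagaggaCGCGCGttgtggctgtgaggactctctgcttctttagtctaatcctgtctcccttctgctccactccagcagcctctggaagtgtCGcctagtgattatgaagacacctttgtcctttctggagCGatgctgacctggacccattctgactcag
Foxf2, chr13:31625566-31625865, plus strand: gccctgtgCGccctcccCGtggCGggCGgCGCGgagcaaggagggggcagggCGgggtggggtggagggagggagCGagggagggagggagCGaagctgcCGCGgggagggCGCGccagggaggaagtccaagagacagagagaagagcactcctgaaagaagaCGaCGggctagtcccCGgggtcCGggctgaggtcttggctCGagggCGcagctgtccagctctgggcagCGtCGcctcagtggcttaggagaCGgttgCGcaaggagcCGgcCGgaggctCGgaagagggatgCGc
Foxk2, chr11:121259737-121260036, plus strand: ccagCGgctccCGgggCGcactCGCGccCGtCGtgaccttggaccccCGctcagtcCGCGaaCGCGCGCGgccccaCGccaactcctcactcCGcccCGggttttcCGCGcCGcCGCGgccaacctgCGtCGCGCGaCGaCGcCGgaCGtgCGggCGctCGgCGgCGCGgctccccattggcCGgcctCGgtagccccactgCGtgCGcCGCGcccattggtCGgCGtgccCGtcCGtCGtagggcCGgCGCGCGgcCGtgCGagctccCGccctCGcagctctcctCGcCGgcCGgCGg

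RefSeq promoters were matched for 25 of the 39 genes, which gave 29 promoters, since some genes have several. The forkhead promoters held a median of 23 CpG, against 7 over 32851 promoters of the same length. The median was 22 in 19 promoters of lineage regulators and 34 in 10 of broadly used genes. Foxk2 held 59, a number reached by 0.100% of all promoters. Foxf2 held 27, reached by 15.5%. At the other end, Foxi2 held 5, and 62.0% of all promoters held as many or more. Foxi1 and Foxn3 held 6 each and Foxn1 held 8. Only 1 other forkhead promoter, 1 of the 3 of Foxp1, held 8 or fewer. These counts describe the sequence alone.

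The strength of the reChIP signal varied among forkhead genes by several log2 units. Mean enrichment over the 4 E14 reChIP libraries ran from 1.01 at Foxh1 to 3.75 at Foxd4, over the 36 genes in both sets. Foxd4, a neural forkhead gene, had K4-K27 values of 3.25 and 3.69 (replicates 1 and 2), and its K27-K4 values were 3.36 and 4.72. Foxp1 (mean 3.65), Foxq1 (3.55) and Foxp2 (3.43) followed, with all of their E14 reChIP values between 2.75 and 4.90. Foxp1 and Foxp2 each have start sites far apart, and their values describe the region at 1 of these sites and not the whole gene. K27-K4 replicate 2 was above replicate 1 at 37 of 37 genes. The median over all promoter regions was also higher in replicate 2, with 2.73 against 1.59. Differences between neighbours in this order were not tested.

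The 2 lowest genes, Foxh1 and Foxk2, had total H3K4me3 above IgG–IgG and total H3K27me3 below it in E14 cells. The median total H3K4me3 of all promoter regions was 1.09 and 1.46 in the same libraries. At Foxh1 the K4-K27 values were -0.43 and 1.16, those of K27-K4 1.13 and 2.17, those of total H3K4me3 1.16 and 1.68, and those of total H3K27me3 -1.59 and -1.87. Foxk2 (mean 1.21) had the same shape, with K4-K27 at -0.40 and 1.35 and K27-K4 at 1.34 and 2.56. Its total H3K4me3 was 1.68 and 1.83. Its total H3K27me3 was -1.59 and -1.75, below IgG–IgG in both replicates. Foxs1 (1.56) and Foxp4 (1.63) were the other low genes. Foxs1, a lineage regulator, differed from Foxh1 and Foxk2 in its totals, with H3K4me3 at 0.52 and -0.40 and H3K27me3 at 0.27 and 0.06.

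**Figure D1:**
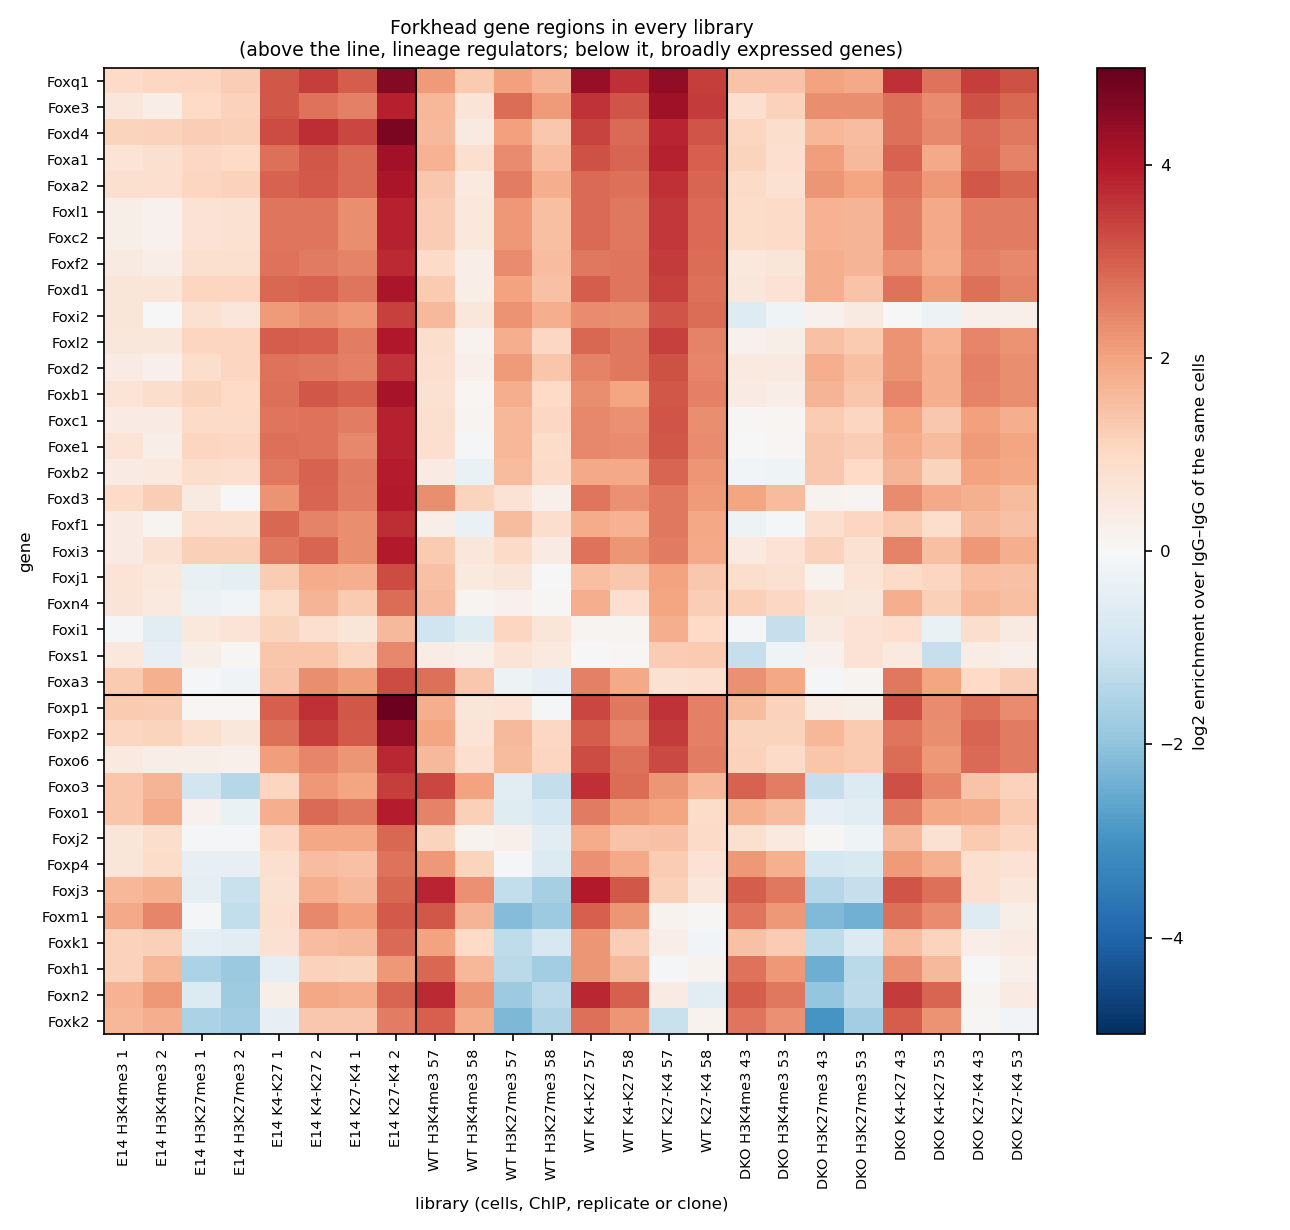
Log2 enrichment over IgG–IgG (colour, from -5 to 5) of the E14 K27-K4 region of each forkhead gene (rows) in every library (columns), with 24 lineage regulators above the line and 13 broadly used genes below it. Most lineage regulators are red in the reChIPs of all sources (Foxi2 is pale in DKO clones), while at most broadly used genes total H3K27me3 is blue and K27-K4 is pale in the clones.

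In the WT clones the medians of the groups lay apart in H3K27me3 and in K27-K4, with exceptions. Over the E14 K27-K4 regions, the median enrichment of the clone means was 1.42 in total H3K27me3 at 24 lineage regulators and -0.87 at 13 broadly used genes, beside -0.38 over all promoter regions. In K27-K4 it was 2.80 and 0.99, beside 0.88. In total H3K4me3 the order was opposite, with 0.86 and 1.84, beside 1.95. The K4-K27 medians lay close together, with 2.47 and 2.6, beside 2.30. In E14 cells the medians of the lineage regulators and broadly used genes were 2.69 and 1.49 for K4-K27, and 3.13 and 2.40 for K27-K4.

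Among the exceptions, Foxo6, set down as broadly used, had 1.60 and 1.07 in total H3K27me3 and 3.30 and 2.56 in K27-K4, as lineage regulators did. Foxp2, also set down as broadly used, had 1.61 and 1.04, and 3.51 and 2.51. Whether Foxo6 and Foxp2 count as exceptions depends on that label. The lineage regulator Foxa3 had -0.25 and -0.40 in total H3K27me3 and 0.76 and 0.85 in K27-K4, as broadly used genes did. Single genes show both patterns. Foxa2, a regulator of endoderm, had 2.56 and 1.81 in total H3K27me3 and 3.67 and 2.93 in K27-K4 of WT clones 57 and 58. Foxd3, which acts in pluripotent cells and in neural crest, had 0.72 and 0.25 in total H3K27me3 but 2.32 and 1.10 in total H3K4me3, with 2.62 and 2.13 in K27-K4. Foxo1 had -0.59 and -0.87 in total H3K27me3 and 1.96 and 0.90 in K27-K4. Foxm1 was lowest of these, with -2.15 and -1.83 in total H3K27me3 and 0.17 and 0.04 in K27-K4, although its K4-K27 values were 3.01 and 2.20. Clone 57 was above clone 58 in K27-K4 at 33 of 37 genes, and in total H3K4me3 at 36. The medians over all promoter regions were also higher in clone 57, with 1.03 against 0.78 in K27-K4 and 2.56 against 1.35 in total H3K4me3.

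Forkhead genes lie together at several loci. The start sites of Foxf1 and Foxc2 are 31.8 kb apart, with 16.8 kb between their regions, and Foxl1 starts 11.5 kb from Foxc2 within the same 21.75 kb region. In K27-K4, Foxf1 had 2.62 and 1.95 in WT clones, and the shared Foxc2 and Foxl1 region had 3.54 and 2.83. Foxq1, Foxf2 and Foxc1 lie in a row on chromosome 13 with start sites 67.6 and 180.83 kb apart, and gaps of 48.45 and 164.55 kb between their regions. Their WT K27-K4 values were 4.43 and 3.45, 3.49 and 2.81, and 3.14 and 2.32, so Foxq1 was the highest of the 3 in both clones. Foxd2 and Foxe3, 17.2 kb apart, had separate regions 4.05 kb from each other, with 3.18 and 2.43 at Foxd2 and 4.24 and 3.49 at Foxe3.

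DKO clones were compared with WT clones with limma in each ChIP, over the regions called in E14 cells, and calls needed a log2 difference over 1 with an adjusted p under 0.05. Foxi2 was the only forkhead gene called, and it was lower in DKO clones in both reChIPs. In K4-K27, 1 of 36 genes was lower, where 3.45% of all regions were, and 0 were higher, against 0.513%. In K27-K4, 1 of 37 was lower, against 5.25%, and 0 were higher, against 0.905%. The share of forkhead genes called was thus near or below that of all regions. No gene was higher at an unadjusted p under 0.05 either, nor with limma voom on recovered reads.

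Foxi2, a gene of ectoderm and of its placodes, had a 4.35 kb region across its start site (chr7:135409201-135413550, mm10) in both reChIP sets. In K27-K4 its enrichment was 3.13 and 2.81 in WT clones and 0.26 and 0.25 in DKO clones. E14 cells had 2.17 and 3.40. In K4-K27 it was 2.37 and 2.34 in WT clones, 0.02 and -0.24 in DKO clones and 2.13 and 2.33 in E14 cells. Both genotypes were clear of each other, and the DKO values lay close to IgG–IgG.

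The fitted difference at Foxi2 was -2.71 in K27-K4 (SE 0.37, 6.56-fold lower, adjusted p = 6.59e-10 in limma) and -2.46 in K4-K27 (SE 0.51, 5.51-fold lower, adjusted p = 1.77e-04 in limma). The K27-K4 values rest on 429 and 368 recovered reads in WT clones and 86 and 63 in DKO clones, with 46 in IgG–IgG. When the variance was estimated with no trend and no robust step, limma gave Foxi2 an adjusted p of 0.0534 in K27-K4 and 0.0527 in K4-K27, and the call was lost in both.

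Foxi2 had no region in the E14 total sets, so it was not among the genes tested in the totals. There 0 of 23 forkhead genes were lower in total H3K4me3, against 2.04% of all regions, and 0 were higher, against 0.0364%. In total H3K27me3, 0 of 11 were lower, against 0.799%, and 0 higher, against 0.177%. Limma gave no gene an unadjusted p under 0.05 in either total, and limma voom called 0. In these fits the largest differences were 0.28 at Foxp4 and -0.35 at Foxo6 in total H3K4me3 (SE 0.91 and 0.82), and 0.46 at Foxi3 and -0.15 at Foxa2 in total H3K27me3 (SE 0.46 and 0.47).

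After these values were seen, the totals were also tested over the E14 K27-K4 regions, which cover 37 of the genes. In total H3K4me3, 1 was lower, against 5.69%, and 0 were higher, against 0.135%. In total H3K27me3, 1 was lower, against 1.34%, and 0 were higher, against 0.392%. The gene was again Foxi2. Its total H3K4me3 was 1.62 and 0.56 in WT clones and -0.66 and -0.22 in DKO clones, a difference of -1.54 (SE 0.44, adjusted p = 0.0121 in limma). Its total H3K27me3 was 2.23 and 1.80 in WT clones and 0.20 and 0.45 in DKO clones, a difference of -1.69 (SE 0.35, adjusted p = 5.20e-04 in limma). Both marks of Foxi2 were therefore lower, and both DKO clones were below both WT clones in all 4 ChIPs.

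**Figure D2:**
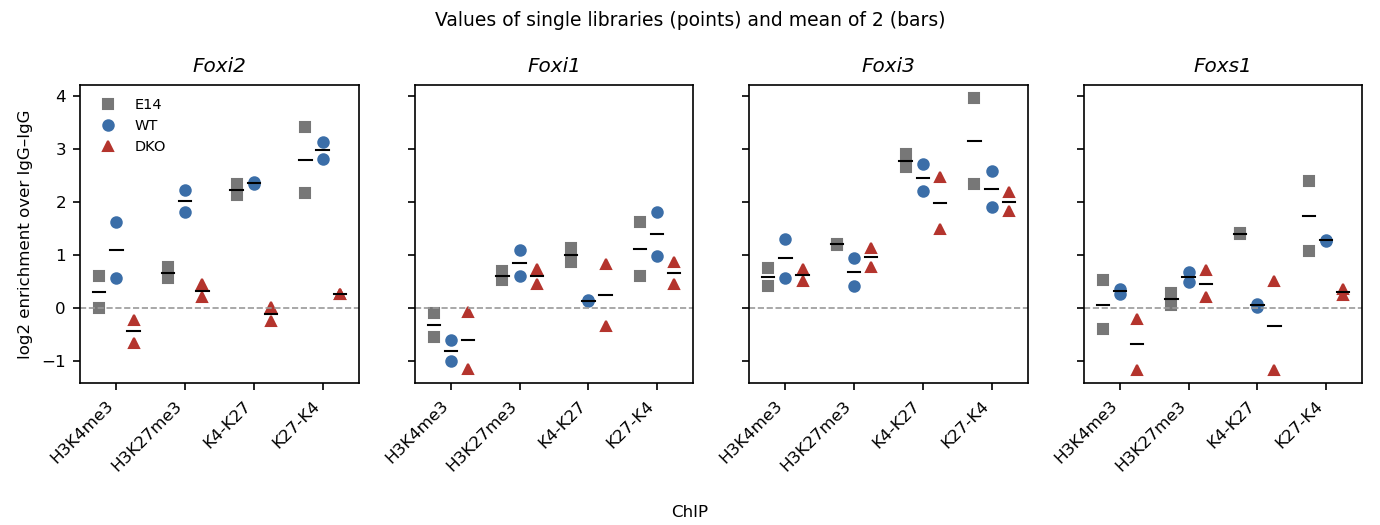
Log2 enrichment over IgG–IgG (vertical axis) in the 4 ChIPs (horizontal axis) at Foxi2, Foxi1, Foxi3 and Foxs1, with a point for each library and a bar for the mean of 2. At Foxi2 the DKO points lie near 0 and below all WT points in every ChIP, while at Foxi3 the WT and DKO points lie close together.

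The other Foxi genes did not pass the test. Foxi1 had 1.81 and 0.98 in K27-K4 of WT clones and 0.86 and 0.46 of DKO clones (difference -0.74, SE 0.36, adjusted p = 0.272 in limma), and its region held only 71, 43, 54 and 30 reads. Foxi3 had 2.58 and 1.9 against 2.18 and 1.83 (difference -0.24, SE 0.48, adjusted p = 0.876 in limma). Foxs1, a gene of pericytes and sensory neurons, had the second largest K27-K4 difference, with 1.26 and 1.29 in WT and 0.35 and 0.24 in DKO clones. That is -0.98 (SE 0.35, adjusted p = 0.0750 in limma). In K4-K27 its values overlapped, with 0.02 and 0.08 in WT and 0.50 and -1.16 in DKO clones, and so did total H3K27me3, with 0.68 and 0.48 against 0.20 and 0.71. Over the same region its total H3K4me3 was 0.36 and 0.27 in WT clones and -1.16 and -0.21 in DKO clones (difference -1.0, SE 0.44, adjusted p = 0.223 in limma).

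Beyond Foxi2, lineage regulators were among the genes whose DKO values lay below the WT values without a call. The counts and medians that follow include Foxi2. In K27-K4 both DKO clones were below both WT clones at 18 of 37 genes, against 25.6% of all regions, and above them at 2, against 19.6%. In K4-K27 they were below at 15 of 37, against 21.5%, and above at 0, against 13.8%. Of these, 17 of the 18 and 15 of the 15 were lineage regulators. All regions are a background not matched to these genes in width or signal. Falls of similar size also occurred at single genes of the partner list below, so they are not shown to be particular to forkhead genes. The median difference over the forkhead genes was -0.48 in K27-K4 (all regions -0.04) and -0.44 in K4-K27 (all regions -0.11), and over lineage regulators alone it was -0.62 and -0.52.

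Single genes show the size of these differences. Foxf2 had 3.49 and 2.81 in K27-K4 of WT clones and 2.53 and 2.40 of DKO clones (difference -0.68, SE 0.51). Foxc1 had 3.14 and 2.32 against 2.05 and 1.81 (difference -0.80, SE 0.49). Foxe3, a lens gene, had 4.24 and 3.49 against 3.20 and 2.86 (difference -0.84, SE 0.53). At these 3 genes the WT clones differed from each other by about as much as the genotypes did. Leaving out WT clone 58, the lower of the 2, raised the K27-K4 count from 1 to 11 of 37 lower genes, against 8.97% of all regions in that fit (Foxa1, Foxc1, Foxd4, Foxe1, Foxe3, Foxf1, Foxf2, Foxi1, Foxi2, Foxl2 and Foxq1), while leaving out any other clone kept it at 1. With clone 58 left out the WT arm is 1 library, and only the DKO clones give the spread.

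**Figure D3:**
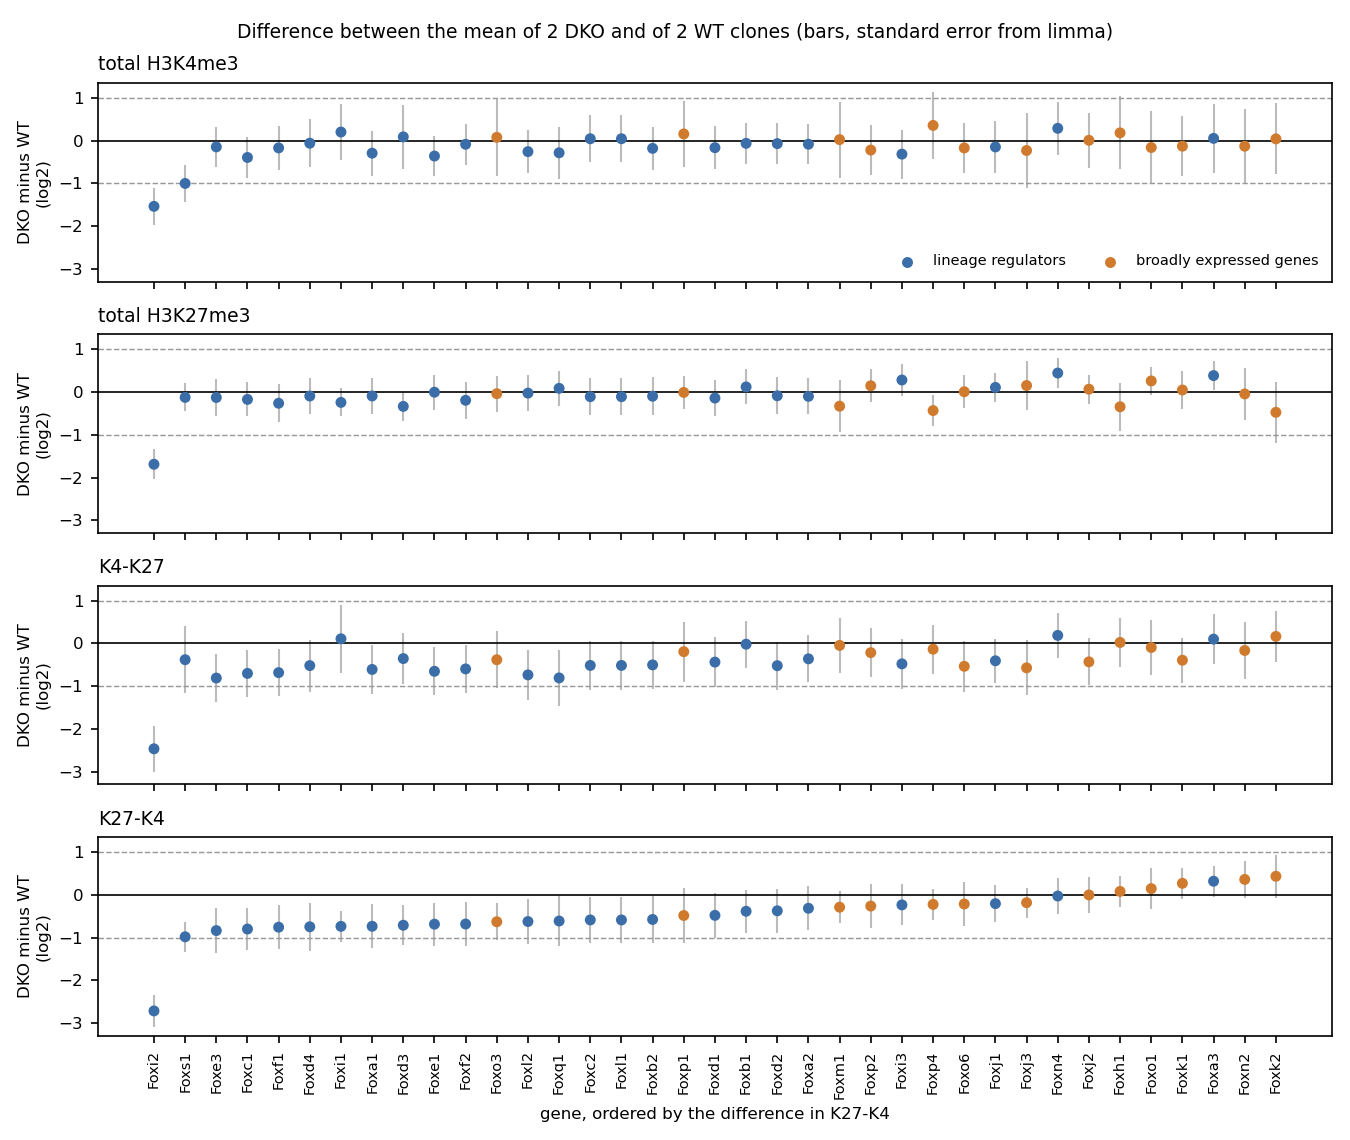
Log2 difference between the means of 2 DKO and 2 WT clones (vertical axis, bars are the standard error from limma) over the E14 K27-K4 region of each forkhead gene (horizontal axis), with 1 panel for each ChIP and dashed lines at -1 and 1. Foxi2 is lowest in every panel, and no gene lies above 1.

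The broadly used genes had no call between genotypes. Their median difference was -0.19 in K27-K4 and -0.19 in K4-K27, and 0 of 13 were called in limma. Foxk2 and Foxn2 had the largest rises in K27-K4, of 0.43 (SE 0.51) and 0.36 (SE 0.44), and neither passed the test. Their largest falls were -0.63 (SE 0.43) at Foxo3 and -0.49 (SE 0.64) at Foxp1 in K27-K4, and -0.57 (SE 0.65) at Foxj3 and -0.54 (SE 0.60) at Foxo6 in K4-K27, none of which passed the test. In K4-K27 the largest rises of any forkhead gene were 0.19 (SE 0.51) at Foxn4, a lineage regulator of the retina and spinal cord, and 0.16 (SE 0.59) at Foxk2.

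A list of 17 other genes of forkhead biology was followed beside them. It held the kinases upstream of Foxo factors (Akt1, Akt2, Pik3ca, Sgk1), the deacetylase Sirt1 and the acetyltransferases Ep300 and Crebbp. It also held the Smad partners, the Tle corepressors, and Gata4, Gata6 and Nodal. In limma 0 of 17 were called between genotypes in total H3K4me3, 0 of 4 in total H3K27me3, 0 of 17 in K4-K27 and 0 of 17 in K27-K4. Only in K27-K4 did 1 of them have an unadjusted p under 0.05.

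The 2 orientations of the reChIP were compared over 21857 regions that both E14 sets listed with the same coordinates, which include 36 of the genes (35 regions). In E14 cells K27-K4 was called lower at 0 of 36, against 0% of all regions, and higher at 0, against 0%. Standard errors in this fit were large beside the differences (1.28 with SE 1.0 at Foxh1), so it could not show that the orientations were equal. At an unadjusted p under 0.05 limma gave 0 of the genes and 55 of all regions, and limma voom on recovered reads called 0 of the genes. With the replicate as a block, 3 of 36 genes were higher in K27-K4, against 6.97% of all regions, Foxh1 by 1.28, Foxk2 by 1.47 and Foxn2 by 1.27. The median difference was 0.58 over the forkhead genes and 0.70 over all regions, but the replicates did not give the same picture. In replicate 2 K27-K4 was the higher orientation at 36 of 36 genes, while in replicate 1 it was the lower one at 15 of 36, all of them lineage regulators. Shares over all regions were not counted. Over all promoter regions the median enrichment in replicate 2 was 2.73 in K27-K4 and 1.94 in K4-K27. In replicate 1 it was 1.59 and 0.69, so a higher K27-K4 is not particular to forkhead genes.

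In the clones, a comparison added after the E14 values were seen, 6 of 13 broadly used genes and 1 of 23 lineage regulators were lower in K27-K4 of WT clones. In WT clones 7 of 36 genes were called lower, against 29.7% of all regions, and 0 higher, against 1.32%. Of the 7, 6 were broadly used (Foxh1, Foxj3, Foxk1, Foxk2, Foxm1 and Foxn2) and 1 was a lineage regulator (Foxa3). In DKO clones 8 were called lower, against 31.3%, and 0 higher, against 3.35%, with 7 broadly used genes among them (Foxh1, Foxj3, Foxk2, Foxm1, Foxn2, Foxo3 and Foxp4) and again Foxa3. Leaving out the K27-K4 library of either clone lowered the count to 4 in both genotypes. In the full fits the calls of forkhead genes were no more than the background share in either genotype. Of the 17 listed partner genes, 9 were called lower in WT and 10 in DKO clones.

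Foxn2 had the largest difference. Its K4-K27 enrichment was 3.77 and 2.97 in WT clones and its K27-K4 enrichment was 0.40 and -0.56, a difference of -3.45 (SE 0.52, adjusted p = 2.09e-09 in limma). Foxk2 had K4-K27 values of 2.74 and 2.22 and K27-K4 values of -1.11 and 0.16, a difference of -2.95 (SE 0.51, adjusted p = 1.61e-07 in limma). Foxm1 differed by -2.5 and Foxj3, a broadly expressed factor of sperm and muscle, by -2.66. In DKO clones the same 4 genes differed by -2.93, -2.69, -2.74 and -2.27. At each of them K27-K4 lay below K4-K27 in every clone.

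These counts depend on how libraries are scaled. The median of the K27-K4 libraries differed from that of the K4-K27 libraries by -0.99 in WT and -1.02 in DKO clones, while the median of the differences at single regions was -0.23 and -0.11. Centring every library on its median raises all differences by the first amount. In WT clones 4 of 36 genes were then called lower, against 21.1% of all regions, and 20 higher, against 33.8%. In DKO clones 4 were called lower, against 20.2%, and 24 higher, against 37.9%. The genes called lower were Foxj3, Foxk2, Foxm1 and Foxn2 in both. Nearly all of the genes called higher were lineage regulators, among them Foxa2, Foxc1, Foxf2 and Foxi2. Those 4 genes were called lower under both scalings.

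**Figure D4:**
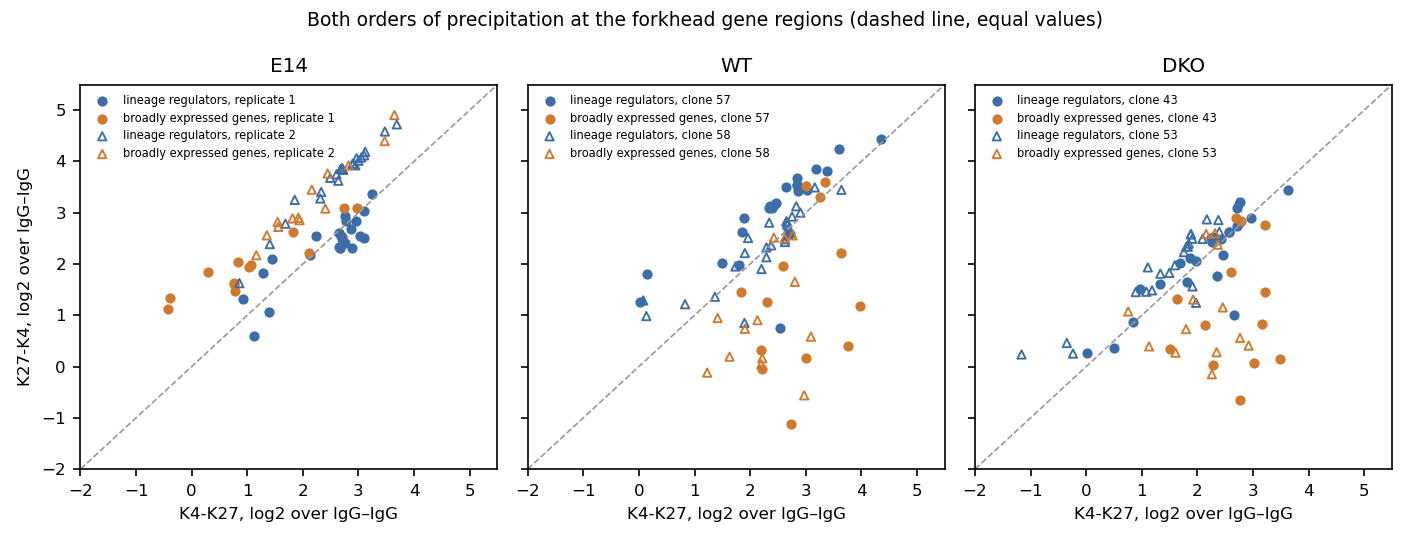
Log2 enrichment over IgG–IgG in K27-K4 (vertical axis) against K4-K27 (horizontal axis) in E14 cells, WT and DKO clones, with a point for each gene and each replicate or clone and a dashed line where both are equal. Broadly used genes lie on or above the line in E14 cells and mostly below it in both genotypes of the clones, while lineage regulators lie closer to the line in the clones.

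The difference between orientations differed between WT clones and E14 cells at 5 of the 36 genes and at 5442 of 21857 regions, in an interaction fit with limma added after seeing the data. At Foxn2 it was 1.27 in E14 cells and -3.45 in WT clones, an interaction of -4.73 (SE 1.10, adjusted p = 0.00116 in limma). Between DKO and WT clones it differed at 0 of 36 genes and at 1 region, and 0 of the genes had an unadjusted p under 0.05. Clonal derivation and sequencing batch change together between E14 cells and the clones. The 21857 regions were all listed in both E14 reChIP sets, so their choice favours high K27-K4 values in E14 cells. The 5 genes that differed between WT clones and E14 cells had no K27-K4 region in the WT or DKO sets.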

How the data were processed

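Processed tables of 26 libraries were used. The authors trimmed reads (Trim Galore 0.6.6), aligned them with bwa mem 0.7.13 to mm10, handled alignments with SAMtools 1.9, marked duplicates with Picard 2.6.0 and quantified regions in SeqMonk. The deposited values are log2 RPM for each kb of a region. Alignments of low mapping quality were dropped, duplicates stayed in, and IgG–IgG was not subtracted. The study describes peak calling with EPIC2 against IgG–IgG, but it reports far fewer E14 reChIP peaks than the deposited sets hold. Those sets hold 24540 K4-K27 and 36235 K27-K4 regions, and how they were called is not given in the sources used here. Whole reads could be recovered from the values (100% within 0.02 reads, checked below 500 reads), with 0 reads entered as 0.9. There are 12 tables; 240 columns were used and 32 columns that match no sample were not.

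Start sites came from RefSeq (GRCm38, the assembly of mm10). Region ends lay within its chromosome lengths. The members and gene lists were chosen with earlier results of these data known. A gene of the partner list is not reported here. Named genes were those called, the 4 with the highest and the 4 with the lowest E14 reChIP enrichment, the 2 largest falls and the 2 largest rises for each ChIP, the genes of shared loci, Foxa2, Foxd3, Foxh1, Foxo1 and Foxm1, and those with no E14 reChIP region. Foxa3, Foxj3 and others beyond these were named after their values were seen.

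Groups were compared with limma 3.58.1 in R 4.3.3 (lmFit, eBayes with trend and robust) on the log2 values, with only the libraries of the comparison in each fit and Benjamini-Hochberg adjustment over all regions of the table. The study tested counts, but the tables hold log2 values, so limma was used. A call needed a log2 difference over 1 and an adjusted p under 0.05. Other calculations used Python 3.11.15, numpy 2.4.6, pandas 2.3.3 and matplotlib 3.10.9. The fits were first tested on simulated data, in which some unchanged regions were called in K4-K27, K27-K4 and total H3K27me3, so adjusted p-values there may be too small. The smaller of the added changes were nearly all missed in total H3K4me3 and between the E14 orientations. The lack of a call in those fits therefore says little about the lack of a difference. E14 libraries with the same replicate number share cells and sequencing batch, so the number pairs them, and their deviations from group means correlated at 0.19 between K4-K27 and K27-K4. Alternatives were the promoter window, the overlap, scaling, variance model, low values left out, voom on recovered reads, region sets, the replicate block and each replicate left out.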

Additional observations from a re-analysis of the deposited data

Results flagged for a closer look

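At 5 genes the difference between orientations (K27-K4 minus K4-K27) was not the same in WT clones as in E14 cells, by a limma test of the difference itself added after seeing the data. The interaction was -4.73 at Foxn2 (SE 1.10, adjusted p = 0.00116 in limma), -4.42 at Foxk2, -3.63 at Foxj3, -3.44 at Foxm1 and -3.13 at Foxh1 (SE 1.12, adjusted p = 0.0242 in limma). All 5 are broadly used genes, and at each of them K27-K4 was above K4-K27 in both E14 replicates and below it in both WT clones. Such a difference was called at 5442 of 21857 regions, so it is not particular to forkhead genes. These regions were all listed in both E14 reChIP sets, a choice that favours high E14 values. None of the 5 genes had a K27-K4 region in the WT or DKO sets. The fit did not pair libraries by replicate. By sign alone, K27-K4 was above K4-K27 in both E14 replicates and below it in both WT clones at 12 of 36 genes, 10 of them broadly used. E14 cells and clones also differ in sequencing batch, and the part of the batch cannot be told apart from that of the cells.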

How the results depend on the processing

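Of 194 alternative values for 19 counts of forkhead genes, 172 stayed within 1.5 times the count reported and 22 moved. Of 682 alternative values for single genes, 648 kept their call and 0 changed direction. Without WT clone 58, 11 genes were lower in K27-K4 of DKO clones, and the counts with 1 clone left out ran from 1 to 11. With no trend and no robust step in limma, the 1 lower gene of K4-K27 and of K27-K4, Foxi2, became 0. The clone region sets, and the E14 K27-K4 regions added later, gave 1 lower gene in each total in place of 0. With 5 kb windows 19 genes had a total H3K27me3 region in E14 cells, and with at least 1 log2 unit over IgG–IgG in both replicates 7 had one. The replicate block, which pairs E14 libraries, raised the genes higher in K27-K4 from 0 to 3, and in WT clones from 0 to 1. Centring on library medians gave 4 lower genes in each genotype and 20 (WT) and 24 (DKO) higher in K27-K4, and limma voom gave 1 higher in WT. Leaving out 1 clone gave from 4 to 7 lower and from 0 to 1 higher in WT, and from 4 to 10 lower and from 0 to 1 higher in DKO clones. The causes of these changes were not tested. Depth limits narrow or weak regions, such as that of Foxi1 with 12 to 218 reads and that of Foxk2 with as few as 9 reads.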
